A study of Mus musculus with 394 samples.

Results

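Sox4, Sox11, Dcx, Dpysl3, Dpysl5, Stmn2, Gap43 and Marcksl1 are 8 genes used as marks of young, still-growing neurons. They were followed through mouse striatum from birth to 10–14 months and then in adult midbrain. They were taken by gene name, and each name matched 1 row of the 48526 genes in the table of unique molecular identifier (UMI) counts and 1 row of the 55487 genes in the table of full-length read counts. All 8 passed the filter on low counts in every comparison.

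The series profiled mice carrying RiboTag, an allele that adds an HA tag to the ribosomal protein eL22 once Cre recombinase has acted. Cre came from the dopamine transporter locus (DAT IRES-Cre/wt;RiboTag+/-, here Cre+), so the tag was made in dopamine neurons, and littermates without Cre (DAT wt/wt;RiboTag+/-, here Cre-) served as controls. All of these mice carried RiboTag. RNA was taken from the tissue lysate (Input) and from the anti-HA immunoprecipitate (IP), which in Cre- mice holds background RNA alone. The striatum gave 70 Inputs (35 Cre- and 35 Cre+) and 68 IPs (34 and 34) at P0, P7, P14, P21, P31, P90 and 10–14 months. At 10–14 months the substantia nigra pars compacta (SNc), ventral tegmental area (VTA), substantia nigra pars reticulata (SNr) and striatum each gave 6 Cre- and 4 Cre+ Inputs and as many IPs. At the same age, 3 Inputs and 3 IPs per midbrain region, all Cre+, were sequenced as full-length libraries. The labels do not name the mice, so the spread between libraries may be in part technical. The full-length and the Cre+ UMI libraries may also come from the same mice, so they may not be independent.

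A neuron that has just left the cell cycle expresses the transcription factors SOX4 and SOX11, which switch on neuronal genes. It then moves and extends an axon with the help of proteins that act on microtubules and actin. Doublecortin (Dcx) binds microtubules in migrating neurons, Dpysl3 and Dpysl5 encode collapsin response mediator proteins that link guidance cues to the cytoskeleton, Stmn2 encodes stathmin-2, which regulates microtubules in growing axons, Gap43 encodes a growth cone protein, and Marcksl1 encodes an actin-linked relative of MARCKS.

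In GRCm38 with GENCODE M21, Sox4 lies on chromosome 13 (28948919–28953713, minus strand), Sox11 on chromosome 12 (27334264–27342574, minus), Dcx on chromosome X (143855842–143933311, minus), Dpysl5 on chromosome 5 (30711564–30799375, plus), Stmn2 on chromosome 3 (8509360–8561606, plus), Gap43 on chromosome 16 (42248442–42340651, minus) and Marcksl1 on chromosome 4 (129513581–129515985, plus). All 8, Dpysl3 included, are protein-coding genes. Sox4 overlaps the long noncoding RNA gene Gm26735 on the other strand, so their reads could not be told apart wherever counting did not use strand. Dpysl5 holds the intronic transcript Gm42764 and Gap43 holds Mir6540, each on the strand of its host gene, so strand does not separate these.

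The promoters are shown for description, and any link to changes of these genes with age was not tested. RefSeq promoter entries (GRCm38.p6) are reported for 5 of the 8 symbols, and Dpysl3 was not looked up. The sequences are the 250 bases before the annotated start, 5′ to 3′ on the strand of the gene, and capitals mark CCAAT or its reverse complement ATTGG. They lie at chr13:28953700-28953949 (minus) for Sox4, chr12:27342719-27342968 (minus) for Sox11 and chr4:129513331-129513580 (plus) for Marcksl1.
Sox4: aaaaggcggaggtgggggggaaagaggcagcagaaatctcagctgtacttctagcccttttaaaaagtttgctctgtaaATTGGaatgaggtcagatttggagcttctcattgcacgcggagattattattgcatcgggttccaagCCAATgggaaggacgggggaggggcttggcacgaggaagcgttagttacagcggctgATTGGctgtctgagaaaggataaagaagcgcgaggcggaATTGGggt
Sox11: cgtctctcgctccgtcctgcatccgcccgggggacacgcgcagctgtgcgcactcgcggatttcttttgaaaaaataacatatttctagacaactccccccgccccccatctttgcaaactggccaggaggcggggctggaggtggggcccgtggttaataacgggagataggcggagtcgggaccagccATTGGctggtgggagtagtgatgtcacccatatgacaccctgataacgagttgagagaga
Marcksl1: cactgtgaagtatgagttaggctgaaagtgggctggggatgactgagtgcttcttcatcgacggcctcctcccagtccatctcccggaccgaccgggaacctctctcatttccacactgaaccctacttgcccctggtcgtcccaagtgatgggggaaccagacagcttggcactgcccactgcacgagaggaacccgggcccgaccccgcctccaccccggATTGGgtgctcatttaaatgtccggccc
On both strands, the Sox4 window held 4 matches and the Sox11 and Marcksl1 windows 1 each. The Dpysl5 window held none, and Dcx had a match in 1 of its 2 entries. Of all 32851 promoter windows of this length, 33.8% held at least 1 match. Other motifs were counted in the same windows, on both strands and with N for any base. TATAAA (12.4% of all windows) was in the Dcx entries alone and AACAAT (9.42%) in Dpysl5 alone. CANNTG (66.2%) was in Sox4, Sox11, Dpysl5 and Marcksl1, and GGGCGG (32.7%) in Sox11 and Dpysl5. A match is a description of the letters only.

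Levels are given as CPM, the UMIs of a gene in each 1000000 UMIs of a library, as mean ± SD over libraries. A UMI marks 1 captured 3′ end, so these values do not depend on gene length. Log2 fold changes come with their standard error (SE) from edgeR's quasi-likelihood test over all genes, and a gene was called at a Benjamini-Hochberg adjusted p under 0.05. Libraries of P0 to P21 came from 2 plate sets (BH001 and PB003/PB008), those of P31 and P90 from PB003/PB008 alone, and those of 10–14 months from plate PB011, so age and plate cannot be told apart in the step from P90 to 10–14 months. In bulk tissue, fewer cells of a type and less RNA per cell cannot be told apart either. Striatal Inputs held 36132 to 1796764 UMIs and striatal IPs 11405 to 208783.

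All 8 genes fell in striatal Inputs between P0 and P90, where 27.6% of the 18424 genes tested were called in either direction and 14.8% were called lower. Each of the 8 also varied over all ages (adjusted p from 2.14e-49 for Sox11 to 4.03e-19 for Gap43), as did 53.3% of all genes. The median log2 fold change of the 8 from P0 to P90 was −4.48, against −0.04 over all genes tested. Over all plates, the fall was steepest for Dpysl3 and shallowest for Gap43, with the P90 Inputs from PB003/PB008 alone.

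The transcription factors had the largest first-week changes. Sox4 in Inputs was between 458 and 1522 CPM at P0 (median 1219, n = 12), between 230 and 479 CPM at P7 (median 268, n = 14) and between 38 and 202 CPM at P14 (median 107, n = 12). P0 and P7 touched at their ends (458 and 479 CPM), and the P14 libraries all lay under the P7 libraries. Its log2 fold change was −2.08 from P0 to P7 (SE 0.15, adjusted p = 1.31e-19) and −1.31 from P7 to P14 (SE 0.17, adjusted p = 4.56e-09). Sox11 ran from 518 to 1150 CPM at P0 (median 991), from 115 to 239 CPM at P7 (median 172) and from 18.5 to 96.6 CPM at P14 (median 71.8). The 3 ages did not overlap. Its log2 fold change from P0 to P7 was −2.64 (SE 0.13, adjusted p = 5.67e-31), the largest of the 8 genes in that step. At P7 the mean of Sox11 stood at 18.7% of its P0 mean and that of Sox4 at 27.6%, while the other 6 genes stood between 44.3% and 100.0%. Mean Sox4 at P0, P7 and P14 was 1340, 343 and 133 CPM in BH001 and 638, 254 and 51.9 CPM in PB003/PB008. Mean Sox11 was 1053, 171 and 74.6 CPM in BH001 and 756, 189 and 50.9 CPM in PB003/PB008. In PB003/PB008 the relative fall of Sox4 was thus larger in the second week, so the order of its steps depended on plate set.

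Later in life both were low. Sox11 in the 4 P31 Inputs was at 0, 22.2, 22.3 and 33.4 CPM (7 UMIs in total), all under the P21 Inputs (35.1 to 98.8 CPM), a step that was not called (log2 fold change −1.40, SE 0.42, adjusted p = 0.126). Sox4 was at 37.1 ± 18 CPM at P90 (n = 5; 19.7, 27, 35, 36.7 and 66.9) and at 36.5 ± 15 CPM at 10–14 months (n = 10). Sox11 was at 23.1, 45, 51, 56.9 and 89.6 CPM in the 5 P90 Inputs and at 65.5 ± 25.5 CPM at 10–14 months (n = 10), a level within the range of P14. None of the steps after P14 was called for either gene. Leaving out P90 Cre+ replicate 2, however, brought the Sox11 step from P90 to 10–14 months past the threshold (log2 fold change 0.76, adjusted p = 0.0345, against 0.52 and 0.14 with it).

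For the cytoskeletal genes of migration and guidance the second-week change was the larger, a difference between steps that was not tested. Dcx ran from 412 to 552 CPM at P0 (median 476), from 138.1 to 287 CPM at P7 (median 212) and from 0 to 57.1 CPM at P14 (median 34.2). These 3 ages did not overlap. Its log2 fold change from P7 to P14 was −2.43 (SE 0.20, adjusted p = 2.53e-17), after −1.39 in the first week (SE 0.15). Dpysl3 was between 830 and 2437 CPM at P0 (median 1928), between 562 and 1362 CPM at P7 (median 909) and between 76 and 257 CPM at P14 (median 193). It fell by 2.26 on the log2 scale from P7 to P14 (SE 0.17, adjusted p = 4.87e-20) and by a further 1.10 from P14 to P21 (SE 0.19, adjusted p = 0.000214), a step that was not called within PB003/PB008 (−1.12, adjusted p = 0.173) or in either genotype alone. Its P0 to P90 change of −5.54 (SE 0.30) was the largest of the 8 genes over all plates. That contrast sets P90 Inputs of PB003/PB008 alone against P0 Inputs of both plate sets. Within PB003/PB008, mean Dpysl3 went from 952 to 38.7 CPM and mean Dcx from 488 to 20.3 CPM, falls of similar relative size. Dpysl5 had lower levels throughout. It went from 254 ± 58.1 CPM at P0 to 153 ± 29.8 CPM at P7 and 35.8 ± 18.6 CPM at P14, a log2 fold change of −1.90 in the second week (SE 0.19, adjusted p = 5.63e-14).

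Stmn2 and Gap43 were not called in the first week and fell in the second. Stmn2 ran from 1316 to 2498 CPM at P0 (median 1971), from 1022 to 2270 CPM at P7 (median 1786) and from 236 to 965 CPM at P14 (median 703). P0 and P7 overlapped, with a log2 fold change of −0.30 (SE 0.13, adjusted p = 0.136), and the second week brought a fall of 1.30 on the log2 scale (SE 0.13, adjusted p = 2.17e-13). The first-week step of Stmn2 passed the threshold with plate as a term (−0.25, adjusted p = 0.0272) and within plates PB003 and PB008 (−0.46, adjusted p = 0.0487). Gap43 was at 1404 ± 410 CPM at P0 (n = 12) and 1405 ± 371 CPM at P7 (n = 14), then at 702 ± 229 CPM at P14 (n = 12). Its libraries overlapped between all neighbouring ages, and the second-week log2 fold change was −0.87 (SE 0.14, adjusted p = 1.54e-06). At 10–14 months Gap43 still stood at 38.1% of its P0 mean and Stmn2 at 13.2%, while the other 6 genes stood between 1.59% and 6.86%. These shares set plate PB011 against a P0 mean pooled over other plates, so they depend on plate. At P0 the mean of Gap43 was 1649 CPM in BH001 and 915 CPM in PB003/PB008.

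Marcksl1 Inputs went from 1936 ± 508 CPM at P0 to 1153 ± 235 CPM at P7, 556 ± 194 CPM at P14, 328 ± 81.2 CPM at P21 and 154 ± 41.1 CPM at P31 (n = 4). The 5 P90 Inputs were at 61.1, 66.9, 69.4, 70.2 and 74.4 CPM, all under the 4 P31 Inputs. The steps to P7, P14 and P21 were called (log2 fold changes −0.96, −0.91 and −0.77), the last of them not within PB003/PB008 (−0.42, adjusted p = 0.768). The step from P31 to P90 had a log2 fold change of −1.34 (SE 0.32) and an adjusted p of 0.07, and it passed the threshold within plates PB003 and PB008 (−1.28, adjusted p = 0.0102) and with the bias-adjusted form of edgeR's method (−1.35, adjusted p = 0.0369), which was run after the results of the default form were known.

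**Figure D1:**
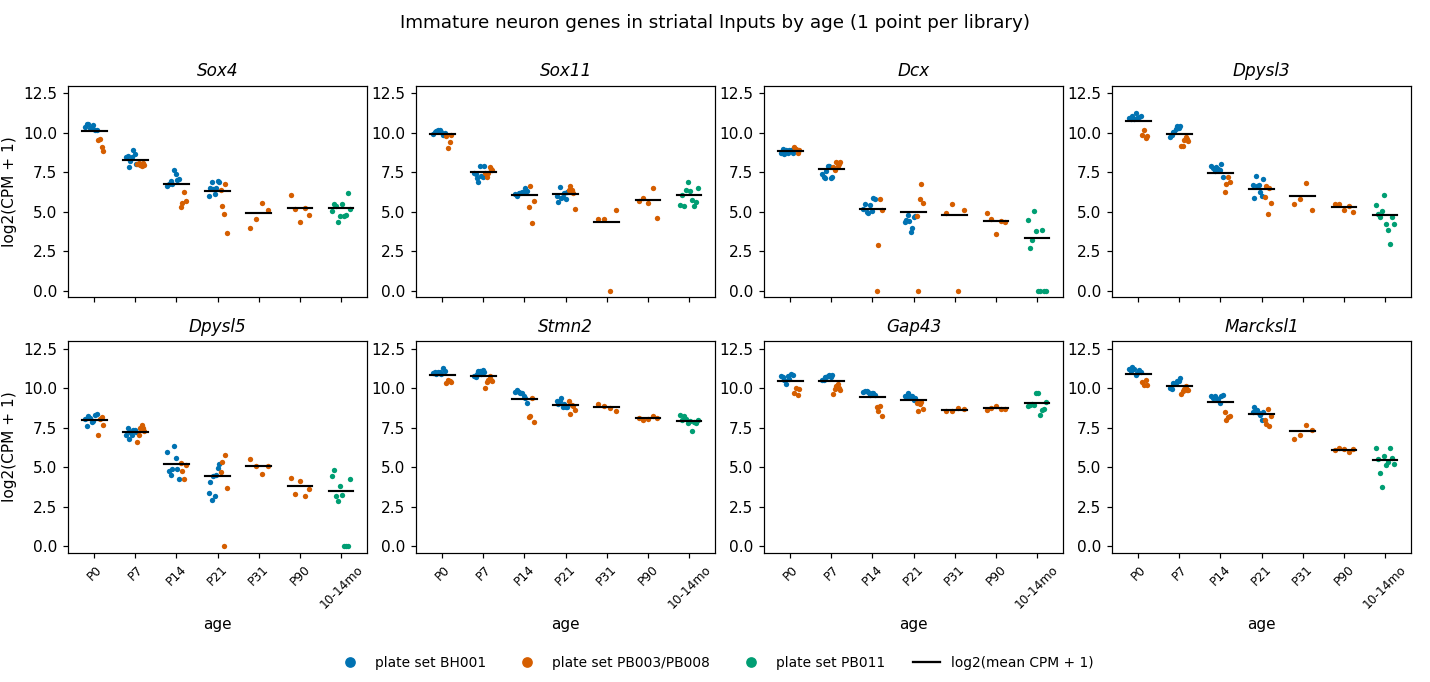
Levels of the 8 genes in the 70 striatal Inputs, as log2(CPM + 1) on the vertical axis against age, with 1 point per library coloured by plate set and a black line at the log2 of the mean CPM + 1. Sox4 and Sox11 drop between P0 and P7 and again to P14, and which Sox4 step is larger differs by plate set. Dcx, Dpysl3 and Dpysl5 drop between P7 and P14. At 10–14 months Gap43 stands at 38.1% of its P0 mean, a share that sets different plates against each other.

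By steps, 6 of the 8 genes were called lower from P0 to P7, where 9.86% of all genes were called in either direction and 5.84% lower. All 8 were called lower from P7 to P14 (17.5% of all genes called, 7.84% lower). From P14 to P21, Dpysl3 and Marcksl1 were called lower (0.548% of all genes called, 0.266% lower). No member was called from P21 to P31 (0.141%), from P31 to P90 (0.0488%) or from P90 to 10–14 months (17.5%). The P31 and P90 groups had 4 and 5 Inputs. From P31 to P90, Stmn2 had a log2 fold change of −0.94 (SE 0.24, adjusted p = 0.104), and −0.97 within PB003/PB008 (adjusted p = 0.000597). From P90 to 10–14 months, Gap43 had one of 0.52 (SE 0.21, adjusted p = 0.0699), which passed without 10–14 month Cre+ replicate 1 (0.58, adjusted p = 0.0401) or 2 (0.57, adjusted p = 0.0499).

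The 2 plate sets gave different levels at the same age. At P0, the 8 Inputs of BH001 all lay above the 4 of PB003/PB008 for Sox4 (1143 to 1522 CPM against 458 to 795), Dpysl3 (1889 to 2437 against 830 to 1144), Stmn2 (1908 to 2498 against 1316 to 1481), Gap43 (1227 to 1924 against 772 to 1048) and Marcksl1 (1850 to 2663 against 1183 to 1506). Dcx overlapped (412 to 504 against 425 to 552). Within PB003/PB008 all 8 genes were nonetheless called lower at P90 than at P0, with log2 fold changes from −5.00 to −1.47, and with plate as a term they ran from −4.97 to −1.31.

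No member was called between genotypes in Inputs. The Cre+ over Cre- log2 fold changes ran from −0.02 to 0.17, each with an adjusted p of 1, and 0.0109% of all genes were called.

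Relatives of the 8 genes followed unevenly. Of 11 relatives, 10 were called lower at P90 than at P0 in Inputs and 1 higher (median −1.91 on the log2 scale). Crmp1, another collapsin response mediator, fell by 3.76 on the log2 scale (SE 0.23), and Stmn1, the widely expressed stathmin, had a log2 fold change of −3.96 (SE 0.29). Dpysl2, of the same family as Dpysl3 and Dpysl5, had a log2 fold change of −0.56 (SE 0.20), and Dclk1, a relative of Dcx, rose by 0.80 (SE 0.21). Of 12 axon growth genes, 11 were called lower, with a median of −2.65. Tubb3, a neuronal tubulin, fell by 2.96 (SE 0.16), and Cd24a, a surface protein of young neurons, had a log2 fold change of −5.68 (SE 0.35).

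The genes outside the 8 whose Input levels ran most like them over the 70 Inputs were Tubb3 (r = 0.97 with the mean of the standardised log2 CPM of the 8), Tubb5, Hn1, Crmp1, Nnat and Tubb2b (r = 0.94), among 7441 genes with a mean of at least 20 CPM. These points share age and plate, so r is a description. Of the 8 themselves, Dpysl3 lay closest to the mean of the 8 (r = 0.98) and Sox11 farthest (r = 0.86).

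Markers of other cells moved over the same ages. The summed level of 8 radial glia and cycling cell genes went from 971 to 2855 CPM in P0 Inputs and from 97.8 to 156 CPM in P90 Inputs, and that of 6 ventral forebrain neuroblast genes from 137 to 460 CPM and from 83.1 to 122 CPM. The summed level of 8 spiny neuron genes was 735 to 993 CPM at P0 and 4244 to 5392 CPM at P90. At 10–14 months Ccnb1 of the first list and Sp8 of the second were at 0 in all Inputs. The part of these cells in the fall of the 8 genes was not tested.

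In striatal IPs the same 8 genes also fell from P0 to P90, where 8.11% of 14304 genes were called and 3.43% were called lower. The paper found no gene with Cre-dependent enrichment in striatal IPs at any age, so these IPs are not read here as dopamine neuron RNA. Per its methods, Input was set aside from the lysate used for the IP, so the IP series is not independent of the Inputs. All 8 also varied over all ages in IPs, as did 36.8% of all genes. Sox11 changed most, with a log2 fold change of −5.57 (SE 0.57, adjusted p = 6.11e-13), from 228 to 1356 CPM at P0 (median 843, n = 12) to 0, 0, 0, 28.4 and 43.3 CPM in the 5 P90 IPs. The P90 IPs all lay under the P0 IPs. Dpysl3 fell by 4.33 on the log2 scale (SE 0.47, adjusted p = 9.32e-12), from 664 to 5424 CPM (median 4846) to 56.7, 147, 153, 172 and 217 CPM. Gap43 had the smallest log2 fold change, −1.58 (SE 0.27, adjusted p = 1.02e-05), from 863 ± 262 to 248 ± 76.7 CPM.

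The IP result rested in part on plate and on the test. Within plates PB003 and PB008 only 5 of the 8 genes were called lower, and Dcx (log2 fold change −0.44, adjusted p = 0.855), Dpysl5 (−1.09, adjusted p = 0.514) and Gap43 (−1.24, adjusted p = 0.0609) were not. Dcx was called at −1.64 (SE 0.43, adjusted p = 0.0061) but not with the bias-adjusted form (−1.53, adjusted p = 0.0764). At P0 the 8 IPs of BH001 held Dpysl3 at 3883 to 5424 CPM and the 4 of PB003/PB008 at 664 to 1368 CPM.

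By steps in IPs, which within PB003/PB008 gave 2 member calls from P0 to P21 against 14 over all plates, 6 genes were called lower from P0 to P7 (5.33% of all genes called, 3.31% lower), all 8 from P7 to P14 (10.5%, 4.19% lower), none from P14 to P21 (0.343%), P21 to P31 (0.643%) or P31 to P90 (0.0979%), and 4 from P90 to 10–14 months (3.53%, 2.19% lower). With the bias-adjusted form, Dpysl3, Dpysl5 and Stmn2 alone were called from P7 to P14, while Sox4, Sox11, Dcx, Gap43 and Marcksl1 had adjusted p-values from 0.0776 to 0.172. The 4 called in the last step were Dcx, Dpysl3, Dpysl5 and Marcksl1. Without P90 Cre+ replicate 3 the Dcx and Dpysl3 calls were lost (adjusted p = 0.113 and 0.0838), and without P90 Cre- replicate 2 that of Dpysl3 (adjusted p = 0.073).

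**Figure D2:**
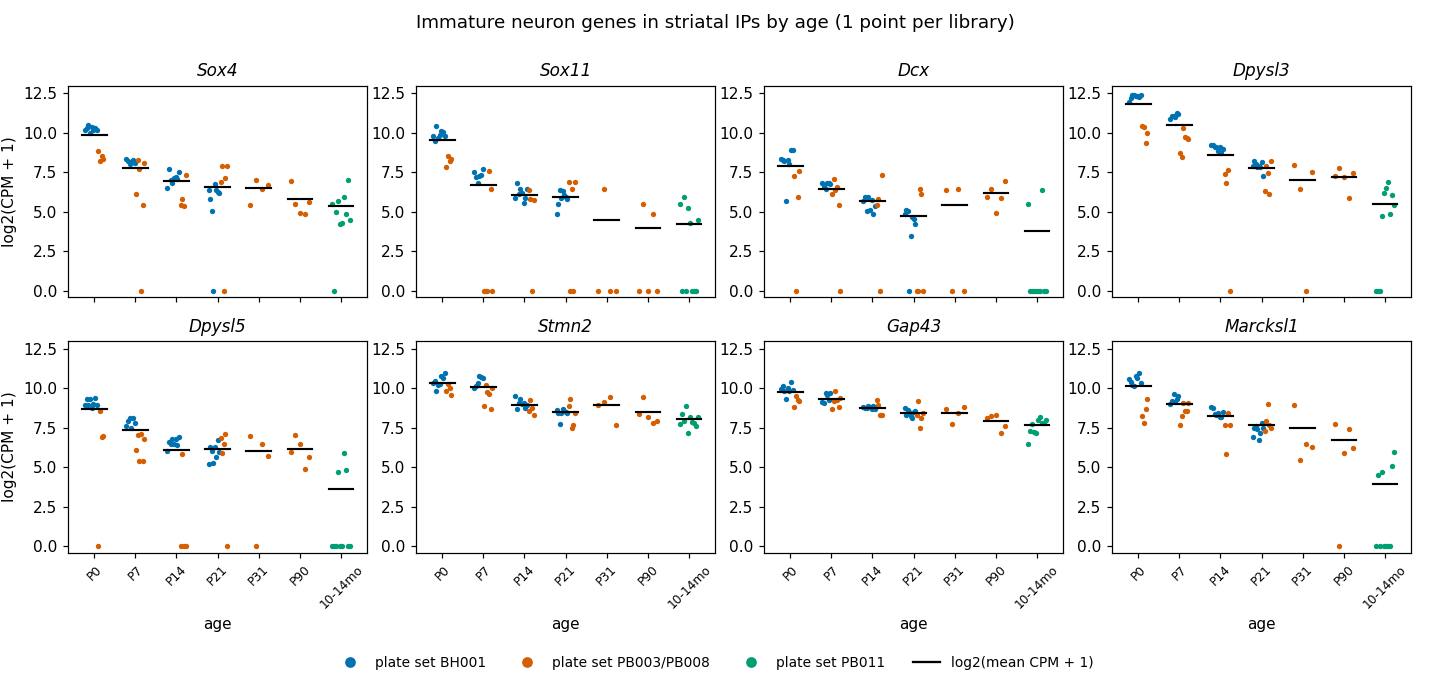
Levels of the 8 genes in the 68 striatal IPs, as log2(CPM + 1) on the vertical axis against age, with 1 point per library coloured by plate set and a black line at the log2 of the mean CPM + 1. Points on the floor are libraries with no UMI of the gene, and at P0 the Dpysl3 values of BH001 (3883 to 5424 CPM) sit above those of PB003/PB008 (664 to 1368 CPM).

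No member was called between genotypes in striatal IPs. The Cre+ over Cre- log2 fold changes in IPs ran from −0.08 to 0.18 (adjusted p = 1 each, 0.035% of all genes called). The interaction of genotype and fraction ran from −0.08 to 0.11, with an adjusted p of 1 for each member, and 0 genes were called by edgeR or DESeq2 (897 genes had an unadjusted p under 0.05), against 11 genes within plates PB003 and PB008.

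Between fractions, 5 of the 8 genes differed over all ages, where 36.1% of 19334 genes were called. Dpysl3 was higher in IPs with a log2 fold change of 1.41 (SE 0.10, adjusted p = 1.6e-26) and Dpysl5 with one of 1.16 (SE 0.12, adjusted p = 3.31e-17). Gap43 was lower at −0.55 (SE 0.07, adjusted p = 1.19e-11) and Marcksl1 lower at −0.47 (SE 0.09, adjusted p = 1.2e-05). Sox4 was called at 0.26 (SE 0.10, adjusted p = 0.0344), but its sign turned with TMMwsp scaling (−0.24, adjusted p = 0.0709) and within BH001 (−0.17, adjusted p = 0.0722). TMMwsp moved the median of all genes in this contrast by −0.36, and with it Dcx (−0.69), Sox11 (−0.58) and Stmn2 (−0.55) were called lower too. Within PB003/PB008, Dpysl3 (0.94) was still called higher and Sox11 (−0.83, adjusted p = 0.0165) lower, while Dpysl5 (0.54, adjusted p = 0.195), Gap43 (−0.07, adjusted p = 0.731) and Marcksl1 (−0.35, adjusted p = 0.152) were not called. Among the relatives, 9 of 11 were called, 6 of them higher, led by Crmp1 (1.07, SE 0.09), Stmn4 (0.93, SE 0.09) and Dpysl4 (1.16, SE 0.12).

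The change from P0 to P90 differed between fractions for 1 of the 8 genes, Dcx, where 0.771% of all genes were called. Its fall was smaller in IPs by 2.81 on the log2 scale (SE 0.65, adjusted p = 0.00814). In the 5 P90 IPs it was at 29.4, 56.7, 61.3, 86.7 and 123 CPM, above all 5 P90 Inputs (11.2 to 28.7 CPM), while at P0 the IPs ran from 0 to 471 CPM and the Inputs from 412 to 552 CPM. The P90 IP values rest on 12 UMIs in total at a median depth of 33980 UMIs, and the lowest, 29.4 CPM, was 1 UMI. At 10–14 months Dcx in IPs was at 12.8 ± 28.5 CPM, with 8 of 10 libraries at 0. Marcksl1 and Stmn2 had differences of 1.58 (SE 0.47, adjusted p = 0.0934) and 1.03 (SE 0.31, adjusted p = 0.0945). Within PB003/PB008, Dcx (4.34), Dpysl3 (1.97), Dpysl5 (2.99) and Marcksl1 (2.6) were called, whereas no member was called in either genotype alone.

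In adult midbrain, sampled at 10–14 months alone, 6 of the 8 genes rested on small counts. Over the 10 SNc, 10 VTA and 10 SNr Inputs, Dcx had 8, 3 and 4 UMIs in total, Dpysl5 16, 11 and 6, Sox4 30, 18 and 18, Sox11 34, 14 and 12, Marcksl1 66, 47 and 52, and Dpysl3 93, 40 and 48. Stmn2 had 780, 530 and 325 and Gap43 814, 520 and 219.

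Stmn2 was higher in every midbrain region than in striatum at 10–14 months. It ran from 156 to 314 CPM in striatal Inputs (median 249, n = 10), from 580 to 851 CPM in SNc (median 702), from 277 to 1000 CPM in VTA (median 826) and from 223 to 536 CPM in SNr (median 408). SNc and striatum did not overlap. Its log2 fold changes over striatum were 1.35 in SNc (SE 0.14, adjusted p = 1.51e-16), 1.58 in VTA (SE 0.15, adjusted p = 3.4e-20) and 0.49 in SNr (SE 0.16, adjusted p = 0.0149). The shares of all genes called were 13.6%, 10.2% and 15.6%.

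Gap43 followed another order. It ran from 313 to 838 CPM in striatum (median 504), from 413 to 904 CPM in SNc (median 593), from 0 to 1341 CPM in VTA (median 751) and from 128 to 522 CPM in SNr (median 212). SNc did not differ from striatum beyond the spread (log2 fold change 0.18, SE 0.14, adjusted p = 0.465), VTA was higher (0.52, SE 0.15, adjusted p = 0.00831) and SNr lower (−1.25, SE 0.16, adjusted p = 9.07e-12). The VTA Inputs included a library of 3606 UMIs, and leaving out the 2 Inputs under 10000 UMIs changed no call of a member.

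Dpysl3 was higher in midbrain and Sox11 lower. Dpysl3 had a median of 24.2 CPM in striatal Inputs against 68.6 CPM in SNc, 60.9 CPM in VTA and 54.5 CPM in SNr, with log2 fold changes of 1.44 (SE 0.32, adjusted p = 0.000186), 1.21 (SE 0.37, adjusted p = 0.0167) and 0.97 (SE 0.35, adjusted p = 0.0428). The SNr call was lost without SNr Cre+ replicate 3 (0.86, adjusted p = 0.0945) or replicate 4 (0.94, adjusted p = 0.0607), without striatal Cre+ replicate 1 (0.94, adjusted p = 0.0544), 2 (0.87, adjusted p = 0.0866) or 4 (0.96, adjusted p = 0.0533), and with no filter on low counts (adjusted p = 0.0696). Sox11 had a median of 59.3 CPM in striatum against 33 CPM in SNc, 15.7 CPM in VTA and 18.1 CPM in SNr, with log2 fold changes of −1.21 (SE 0.34, adjusted p = 0.00531), −1.57 (SE 0.42, adjusted p = 0.00397) and −2.20 (SE 0.42, adjusted p = 6.65e-06), which rest on 34, 14 and 12 UMIs in the midbrain Inputs against 76 in striatum. Sox11 in VTA Inputs ran from 0 to 357 CPM, the highest in a library of 8412 UMIs. Its VTA mean was 62 CPM against 65.5 CPM in striatum. Sox4, Dcx, Dpysl5 and Marcksl1 were not called in any region.

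In adult midbrain IPs, where tagged ribosomes come from dopamine neurons, Gap43 and Stmn2 were higher in Cre+ than in Cre- mice in all 3 regions and the other 6 genes were called in none. Gap43 in SNc IPs was at 889, 915, 1657 and 1935 CPM in Cre+ and at 219 to 303 CPM in the 6 Cre- libraries (median 283). In VTA it was at 1128, 1337, 1766 and 2131 CPM against 228 to 614 CPM (median 331). In SNr it was at 694, 885, 951 and 1482 CPM against 0 to 220 CPM (median 49.2). Cre+ and Cre- did not overlap in any region. The log2 fold changes were 2.19 in SNc (SE 0.28, adjusted p = 2.04e-12), 1.91 in VTA (SE 0.27, adjusted p = 3.45e-10) and 3.29 in SNr (SE 0.37, adjusted p = 5.22e-16), where 5.13%, 6.26% and 3.93% of all genes were called in either direction and 2.37%, 2.5% and 1.35% higher.

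Stmn2 was at 1012, 1108, 1149 and 1876 CPM in Cre+ SNc IPs against 439 to 910 CPM in Cre-, at 1100, 1815, 2049 and 2349 CPM against 334 to 1010 CPM in VTA, and at 1178, 1211, 1586 and 2025 CPM against 214 to 660 CPM in SNr. The genotypes did not overlap here either. Its log2 fold changes were 0.81 in SNc (SE 0.26, adjusted p = 0.0447), 1.2 in VTA (SE 0.26, adjusted p = 0.000237) and 1.62 in SNr (SE 0.29, adjusted p = 2.82e-06). The SNc call was lost without Cre+ replicate 2 (0.89, adjusted p = 0.0535), 3 (0.58, adjusted p = 0.261) or 4 (0.91, adjusted p = 0.052), and with no filter on low counts (adjusted p = 0.101). For the 6 other genes the SE of these contrasts was between 0.58 and 1.32, so changes of several-fold were not detectable at this depth.

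**Figure D3:**
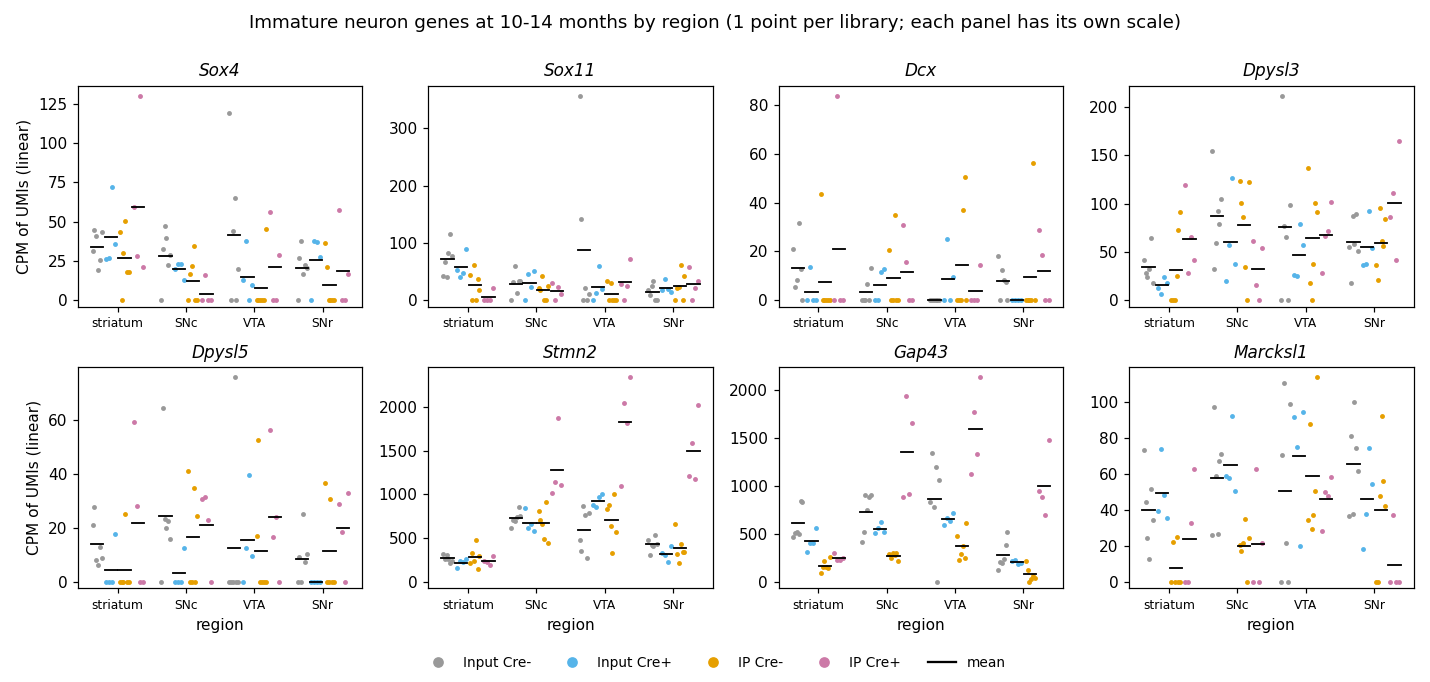
CPM of the 8 genes at 10–14 months in striatum, SNc, VTA and SNr, with 1 point per library for Inputs and IPs of Cre- and Cre+ mice, black lines at the means and a linear scale of its own in each panel. The Cre+ IPs of Gap43 and Stmn2 sit above all Cre- IPs of the same midbrain region, with Gap43 at 889 to 1935 CPM in SNc.

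Markers of dopamine neurons and of other cells moved with genotype in these IPs, and their part in the result was not tested. The summed level of 6 dopamine neuron genes was 4122 to 8656 CPM over the Cre+ midbrain IPs and 189 to 1383 CPM over the Cre- IPs, with no gene of the list at 0 in all libraries of a group. That of 6 oligodendrocyte genes was 609 to 4169 CPM in Cre+ and 3585 to 7983 CPM in Cre- IPs. Of 10 relatives tested, 2 were called higher and 1 lower in SNc and in VTA, and 3 and 1 in SNr, with medians of −0.09, 0.22 and 0.10 against −0.34, −0.24 and −0.30 over all genes. Stmn1 was higher in Cre+ in SNc, VTA and SNr (1.83, 1.41 and 1.61, SE 0.27 to 0.30), as was Basp1, a growth-associated membrane protein gene (1.81, 1.18 and 2.55, SE 0.33 to 0.48). Stmn4 was lower in all 3 (−1.21, −1.48 and −1.46, SE 0.31 to 0.37), and Stmn3 was higher in SNr (0.97, SE 0.27).

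The full-length libraries, at 3059148 to 15762443 reads, gave levels of the low genes that the UMI libraries could not. Levels in these libraries grow with transcript length, so they are compared within a gene only. Gap43 was at 871, 1063 and 1145 CPM in SNc IPs against 192, 196 and 205 CPM in Inputs, at 826, 929 and 936 CPM against 226, 250 and 252 CPM in VTA, and at 462, 602 and 618 CPM against 80.8, 85.6 and 99.4 CPM in SNr. Its IP over Input log2 fold changes were 2.01 (SE 0.12, adjusted p = 2.12e-11), 1.52 (SE 0.12, adjusted p = 4.93e-10) and 2.27 (SE 0.13, adjusted p = 1.4e-12). Stmn2 was higher in IPs by 1.2, 1.38 and 1.95 (SE 0.11 each). No IP overlapped an Input of its region for either gene. Of all 17235 genes tested, 31.7% were called in SNc, 34% in VTA and 34.9% in SNr.

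Both collapsin response mediator genes were higher in IPs of VTA and SNr. All full-length libraries are Cre+, so capture by the tag and background binding cannot be told apart in them. In the UMI midbrain IPs neither gene was called between genotypes in any region, on few UMIs. Over all plates both were also higher in striatal IPs than in Inputs, where neither was called between genotypes. Dpysl5 was at 137, 141 and 179 CPM in VTA IPs against 49.6, 49.7 and 50.6 CPM in Inputs and at 102, 114 and 122 CPM against 19.6, 23.7 and 26.8 CPM in SNr, with log2 fold changes of 1.24 (SE 0.18, adjusted p = 7.99e-06) and 1.85 (SE 0.19, adjusted p = 4.18e-08). In SNc its value was 0.44 (SE 0.18, adjusted p = 0.0655), which passed with TMM scaling (0.51, adjusted p = 0.0396). Dpysl3 had values of 0.12 in SNc (SE 0.14, adjusted p = 0.531), 0.52 in VTA (SE 0.14, adjusted p = 0.00407) and 0.80 in SNr (SE 0.14, adjusted p = 6.41e-05).

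None of the other 4 genes was called higher in IPs. Marcksl1 was lower in SNr (−1.29, SE 0.23, adjusted p = 0.000105), at 13.9, 19.8 and 23.3 CPM in IPs against 30.9, 32 and 44.1 CPM in Inputs. Sox4 had values of −0.68, −0.09 and −0.92 in SNc, VTA and SNr (SE 0.36 to 0.37), Sox11 of −0.70, −0.01 and −0.29 (SE 0.29 to 0.30) and Dcx of −0.46, −0.25 and −0.16 (SE 0.34 to 0.35), none of them called. The fits scale by size factors and the CPM by library totals, and some directions by CPM differed from the fitted sign. Sox4 in VTA was at 16.5, 17.3 and 19 CPM in IPs and at 13.3, 14.4 and 16 CPM in Inputs, without overlap. Mean CPM was also higher in IPs for Sox11 and for Dcx, each in VTA and in SNr, where IPs and Inputs overlapped. Dcx lay between 6.24 and 13.6 CPM in all 18 libraries. With the bias-adjusted form, Sox11 in SNc (−0.66, adjusted p = 0.0352), Sox4 in SNr (−0.95, adjusted p = 0.0285), Marcksl1 in VTA (−0.50, adjusted p = 0.0431) and Dpysl5 in SNc (0.45, adjusted p = 0.0479) passed as well. Single libraries also decided calls. Without SNr IP replicate 3, Sox4 was lower in SNr (−1.88, adjusted p = 3.37e-05) and in SNc (−0.68, adjusted p = 0.0355) and Sox11 in SNc (−0.70, adjusted p = 0.0467). Sox11 in SNc also passed without SNr IP replicate 2 (−0.70, adjusted p = 0.0341), Marcksl1 in SNc without SNc IP replicate 1 (−0.74, adjusted p = 0.019), and Dpysl5 in SNc without SNc IP replicate 2 (0.58, adjusted p = 0.0263) or 3 (0.57, adjusted p = 0.0297).

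**Figure D4:**
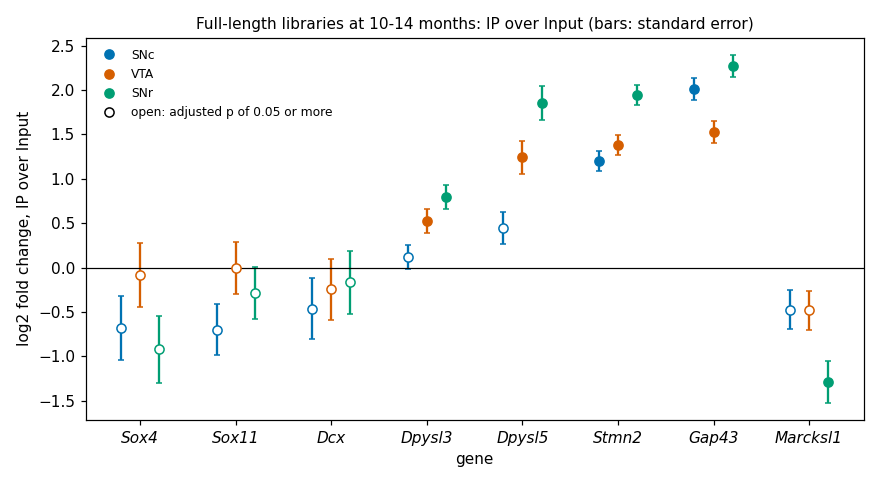
IP over Input log2 fold changes of the 8 genes in the 18 full-length libraries (3 IPs and 3 Inputs per region), with bars for the SE and open points for an adjusted p of 0.05 or more. Gap43 and Stmn2 lie between 1.2 and 2.27 in all 3 regions, and Sox4, Sox11 and Dcx lie at or under 0.

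The summed level of 6 dopamine neuron genes was 6432 to 11003 CPM in these IPs and 105 to 825 CPM in the Inputs, while that of 6 oligodendrocyte genes was 435 to 3141 CPM in IPs and 5521 to 9710 CPM in Inputs. Of 11 relatives, 5 were called higher and 1 lower in SNc, 6 and 1 in VTA and 6 and 3 in SNr, with median log2 fold changes of 0.13, 0.59 and 0.47 against 0.02, −0.07 and 0.08 over all genes. Stmn3 (1.39, SE 0.11) and Stmn1 (1.94, SE 0.15) were higher in SNc, as was Basp1 (1.16, SE 0.11), and Sox12, of the same family as Sox4 and Sox11, was lower (−1.88, SE 0.40).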

How the data were processed

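UMI counts per gene were deposited by the authors unnormalized. Per the study's methods, reads were trimmed of poly(A), aligned with STAR to GRCm38 (GENCODE vM10), and UMIs 1 mismatch apart were collapsed. For the full-length counts, deposited as raw reads per gene, the authors removed rRNA with Bowtie2, aligned with STAR 2.6.7a (GENCODE M25) and counted exons with featureCounts 1.6. Wells of plates PB003 and PB008 that held the same barcoded sample were summed, as were technical repeats, leaving 296 UMI and 18 full-length units of 394 samples. Rows naming no gene (5, 0.0002% of UMIs) were dropped.

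Genes whose UMIs summed to 10 or more in a comparison (filterByExpr for full-length libraries) were tested with edgeR 4.0.16 in R 4.3.3 (quasi-likelihood, DESeq2 size factors, Benjamini-Hochberg at 0.05). Age models held genotype, and IP over Input was averaged over genotypes. edgeR has 2 forms of this method. The default of this version was run first and is reported. The bias-adjusted form was then run on every comparison, with the first results known, and changed 11 of 240 member calls. For a time it replaced the default as the reported fit, and it was then returned to an alternative. DESeq2 1.42.0 and other scalings, filters, plates and left-out libraries were alternatives. The code was checked on simulated counts. The named genes were the 8 members, up to 4 per list by smallest p with same-family relatives, and the 6 genes most correlated with the members. Members and lists were chosen with earlier results of these data known. Synaptosome and sorted-particle samples were not tested.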

Additional observations from a re-analysis of the deposited data

Results flagged for a closer look

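In 19 of 141 groups of 4 to 10 libraries, 1 library lay farther from its neighbours than Dixon's 95% limit allows. That limit assumes normally distributed values, which CPM from few UMIs are not, so no rate expected by chance can be set beside this count. Most rest on few UMIs, and 8 have every other library at 0, a pattern that passes the limit by construction. Those 8 were Sox4 in a Cre+ SNc IP (15.7 CPM) and a Cre- VTA IP (45.5 CPM), Sox11 in a P31 striatal IP (86.5 CPM), Dcx in a Cre+ VTA IP (14.5 CPM) and a Cre- SNr IP (56.1 CPM), Dpysl5 in a Cre+ SNc Input (12.6 CPM) and a Cre- VTA Input (75.9 CPM), and Marcksl1 in a Cre+ SNr IP (36.9 CPM).

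Among striatal libraries, Sox4 stood apart in an Input at 10–14 months (71.9 CPM, others up to 44.4), an IP at P90 (123 CPM, others up to 49.1) and an IP at 10–14 months (130 CPM, others up to 59.5). Dcx (83.9 CPM), Dpysl5 (59.5 CPM) and Marcksl1 (62.6 CPM) each did so in an IP at 10–14 months, Stmn2 in a P90 IP (693 CPM, others up to 337) and Marcksl1 in a P31 IP (494 CPM, others up to 86.9). In midbrain, Dpysl5 stood apart in a Cre- SNc Input (64.6 CPM) and a Cre- VTA IP (52.5 CPM), and Stmn2 in Cre+ SNc IP replicate 3 (1876 CPM, others up to 1149), the library without which the SNc call of Stmn2 had an adjusted p of 0.261.

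The change of Dcx from P0 to P90 differed between IPs and Inputs by 2.81 on the log2 scale, by a test of the interaction.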

How the results depend on the processing

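Of 4973 member values recomputed under the alternatives, 4817 kept their side of the threshold, 85 lost a call and 67 gained one. The other 4 turned sign and were called in the main fit, the alternative or both. A turn of sign without a call in either fit was counted among the 4817. Age effects have no direction and were judged by the threshold alone. The 4 were Sox4 between IP and Input (−0.24 with TMMwsp, −0.17 in BH001), Sox11 in IPs from P7 to P14 (0.0919 in PB003/PB008) and Dpysl5 in IPs from P90 to 10–14 months (2.32 with PB003 wells alone). The cause was not tested for any change. No paired analysis was possible because the labels give no replicate numbers and do not tie IPs to Inputs. The bias-adjusted form of edgeR's method, chosen after seeing the data, changed 11 of 240 member calls.

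In Cre- samples alone (fewer samples), genes called were 4143 for IP against Input (6983 with all), 123 for IP P90 against P0 (1160; members 4 of 8), 2029 for the IP age effect (5258), 455 for IP steps to P21 (2315; members 7 against 14), 117 for later IP steps (611; members 0 against 4), 2233 for Input P90 against P0 (5092), 5119 for the Input age effect (9826), 1282 and 833 for Input steps to P21 and later (5135 and 3260) and 2 for age by fraction (149; members 0 against 1). In Cre+ samples alone they were 4627, 661, 2656, 1140, 86 (members 0), 2920, 5382, 2302, 1083 and 11 (members 0) in that order.

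In PB003/PB008 alone, genes called were 2144 for IP against Input (members 2 against 5), 180 for IP P90 against P0 (members 5), 309 for the IP age effect (members 5), 89 for IP steps to P21 (members 2), 2167 for Input P90 against P0, 4481 for the Input age effect, 1277 for Input steps to P21, 77 for age by fraction (members 4) and 11 for genotype by fraction (0 with all). BH001 alone gave 3739 for IP steps to P21. PB003 wells alone gave 1792 for later Input steps and 0 members for later IP steps.

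With filterByExpr (fewer genes tested), genes called were 2576 for region (5630; members 5 against 11), 2953 for IP against Input, 620 for IP P90 against P0, 1215 for the IP age effect, 986 for IP steps to P21, 5015 for the Input age effect and 1849 for later Input steps (members 4 against 0), with 3 members for age by fraction. With this filter 180 member results were left, against 216 with TMMwsp scaling, and none of the 180 lost a call. The fewer members called for region are therefore members removed before testing. DESeq2 called 3 members for later Input steps and 3 for age by fraction. The bias-adjusted form gave 970 genes and 9 members for IP steps to P21 and 1 member for later Input steps, as did TMMwsp and leaving out Inputs over 1000000 UMIs. TMMwsp called 1 member for later IP steps.

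Leaving out 1 library at a time gave 2 to 4 members for later IP steps, 0 to 1 for later Input steps, 10 to 11 for regions, 5 to 6 for midbrain genotype and 11 to 14 for full-length IP against Input, and 438 to 624 genes for later IP steps. Depth limits Dcx, Dpysl5, Sox4 and Sox11 in adult midbrain, with 3 to 34 UMIs over 10 Inputs of a region.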

Other observations

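Stmn2 and Gap43 were also measured in ventral midbrain synaptosome preparations of RiboTag mice at 10–14 months, which were not tested. The 6 IPs without Cre held Gap43 at 868 ± 220 CPM and the 8 with Cre at 1397 ± 299 CPM, with ranges of 586 to 1196 and 766 to 1666 CPM that overlap. Stmn2 was at 1030 ± 142 CPM and 1390 ± 319 CPM in the same libraries, also with overlap.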
